A study of Homo sapiens with 12 samples.

Results

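Autosomal genes that were silent in OCI-AML3 leukaemia cells carrying a guide against ALAS1 are described here. They were chosen by their read counts in sgALAS1 and sgSCR libraries: a gene was taken as silent where it had at most 3 reads summed over the 3 sgALAS1 libraries and at least 90 reads summed over the 3 sgSCR libraries. Of 57905 gene rows of the count table, 47 lay within these read limits, and 39 of them were on autosomes. A row is 1 Ensembl gene identifier. Of the other 8 rows, 4 were on chromosome Y, 1 was on chromosome X and 3 had no chromosome in the annotation used and were left out. The 39 rows covered 34 loci that do not overlap each other, spread over 16 chromosomes, and 34 of the rows were protein coding.

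OCI-AML3 is a widely used cell line from human acute myeloid leukaemia. In 1 experiment, cells received SA at 500 µM for 6 days, and cells given the vehicle for 6 days served as their control. In the other experiment, sgALAS1 cells carried a guide against ALAS1 and sgSCR cells a scrambled guide, and both received doxycycline for 7 days to switch the guide on. The labels name no guide and no doxycycline for the SA and vehicle cells, do not spell out SA, and do not say whether sgALAS1 cells were a clone or a mixed population. ALAS1 makes the enzyme that starts, and sets the pace of, heme synthesis in most cells, and the study set loss of heme synthesis by guide beside SA. Each group had 3 libraries. Nothing in the labels says that these came from separate cultures, so p-values measure the spread between these libraries, which may be technical.

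Reads came from QuantSeq, a method that sequences a tag near the 3′ end of polyadenylated RNA, so that a read stands for a transcript whatever its length. Levels are given as CPM, the reads of a gene scaled to a common library size. In such bulk samples, fewer cells that make a transcript and less of it per cell cannot be told apart. An autosomal gene has a maternal and a paternal copy, and most genes can be read from both. Imprinted genes are read from only 1 parental copy, because the other is shut by a mark, often DNA methylation, set in the germ line. The best known imprinted region of chromosome 15, where SNRPN is read from the paternal copy, is the one lost in Prader-Willi syndrome.

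Library totals were 4658513 to 7339843 reads, with a median of 5573540, and libraries of a group correlated at 0.959 to 0.971 (Pearson, log2 CPM over tested genes). Myeloid leukaemia cell markers summed to 5637 to 5762 CPM in sgALAS1, 4753 to 5172 CPM in sgSCR, 5413 to 5810 CPM in SA and 4805 to 5043 CPM in vehicle libraries, and all 23 were tested. No read was found in any library for 8 of 22 lymphoid markers (CD2, CD3E, LCK, ZAP70, BLK, KLRD1, TRBC1 and TRBC2), for the erythroid and megakaryocyte markers GATA1, GP9, HBB, HBA1, HBA2, HBD and HBG1 or for 3 of 13 stromal and epithelial markers (COL3A1, CDH5 and KRT19). Summed levels of the lymphoid list were 32.1 to 51.9 CPM in sgALAS1 and 21.9 to 24.7 CPM in sgSCR libraries, and 49.3 to 65.7 CPM in SA and 32.8 to 33.98 CPM in vehicle libraries. Of its 3 tested genes, IL7R carried the higher sums, with means of 39.8 CPM in sgALAS1 and 8.29 CPM in sgSCR, and 48.97 CPM in SA and 10.1 CPM in vehicle libraries. CD3D had means of 0 CPM in sgALAS1 and 4.99 CPM in sgSCR, and 0.772 CPM in SA and 13.5 CPM in vehicle libraries. NKG7 had means of 0.368 CPM in sgALAS1 and 8.38 CPM in sgSCR, and 5.57 CPM in SA and 8.52 CPM in vehicle libraries. The erythroid list summed to 10.7 to 14.7 CPM in sgALAS1 and 6.94 to 11.2 CPM in sgSCR libraries, and to 6.49 to 10.4 CPM in SA and 5.75 to 8.97 CPM in vehicle libraries. The stromal list, which holds VIM, summed to 714 to 802 CPM in sgALAS1 and 474 to 628 CPM in sgSCR libraries, and to 616 to 729 CPM in SA and 718 to 862 CPM in vehicle libraries. No member of these 4 lists was among the silent genes, and the part of such cells in the results was not tested.

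The targeted gene itself had 26.2, 26.4 and 27.3 CPM in the sgALAS1 libraries, against 38.6, 42.0 and 37.4 CPM in the sgSCR libraries. ALAS1 RNA was thus lower in every sgALAS1 library, at -0.56 ± 0.14 (log2 fold change and SE), with an adjusted p of 0.00777 by edgeR's quasi-likelihood test, or 0.0503 without sgSCR replicate 2. Reads at the 3′ end do not show an edit within the gene. In the SA libraries ALAS1 had 106, 102 and 111 CPM, against 37.5, 36.4 and 31.1 CPM in the vehicle libraries (log2 fold change 1.60 ± 0.14, adjusted p = 1.36e-09). ALAS1 RNA was therefore higher in every SA library than in any vehicle library.

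The read limits fixed how the silent genes stood in sgALAS1 and sgSCR, so those values are a description. Over the 39 rows, the 3 sgALAS1 libraries together held 29 reads, and 23 rows had no read in any of them, while sgSCR reads per row were 90 to 1885. Summed over 1 row per locus, the level was 1.39, 2.91 and 0.665 CPM in the sgALAS1 libraries, against 750.6, 632 and 457 CPM in the sgSCR libraries. A count of 0 over the group allows up to 3 reads, which is 0.182 CPM. Against that limit the 23 rows without reads were at least 32.4-fold (HRC) to at least 341-fold (APOC2) below the sgSCR level pooled over its 3 libraries. A single sgSCR library can lie nearer to the limit than the pooled level does. Such limits cover counting error of the sgALAS1 reads only. Near the limits, NFE4 had 1 read in sgALAS1 and 90 in sgSCR, HRC had 0 in sgALAS1 and 102 in sgSCR, and FBXO17 had 0 in sgALAS1 and 103 in sgSCR, while SLC39A4, BCL7A and NOG were at 3 sgALAS1 reads. Just outside, CD3D and B3GNT8 each had 0 reads in sgALAS1 and 86 in sgSCR, and TMEM221 had 2 in sgALAS1 and 86 in sgSCR. BCL11A, APP and AC090204.1 had 4 reads each in sgALAS1 and 608, 311 and 99 reads in sgSCR.

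Such rows were found mainly with sgALAS1 as the low group. Counting rows with at most 3 reads in 1 group and at least 90 in another over all 12 ordered pairs of groups, sgALAS1 gave 47 rows against sgSCR, 49 against vehicle and 13 against SA, which share the sgALAS1 libraries. SA gave 1 row against vehicle, MXRA8, which had 0 SA reads and 92 vehicle reads, 4 reads in sgALAS1 and 26 in sgSCR. The other 8 pairs gave 0 rows. Group totals were of like size, at 16573711 reads in SA, 18340169 in vehicle, 16741217 in sgALAS1 and 17537725 in sgSCR.

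**Figure D1:**
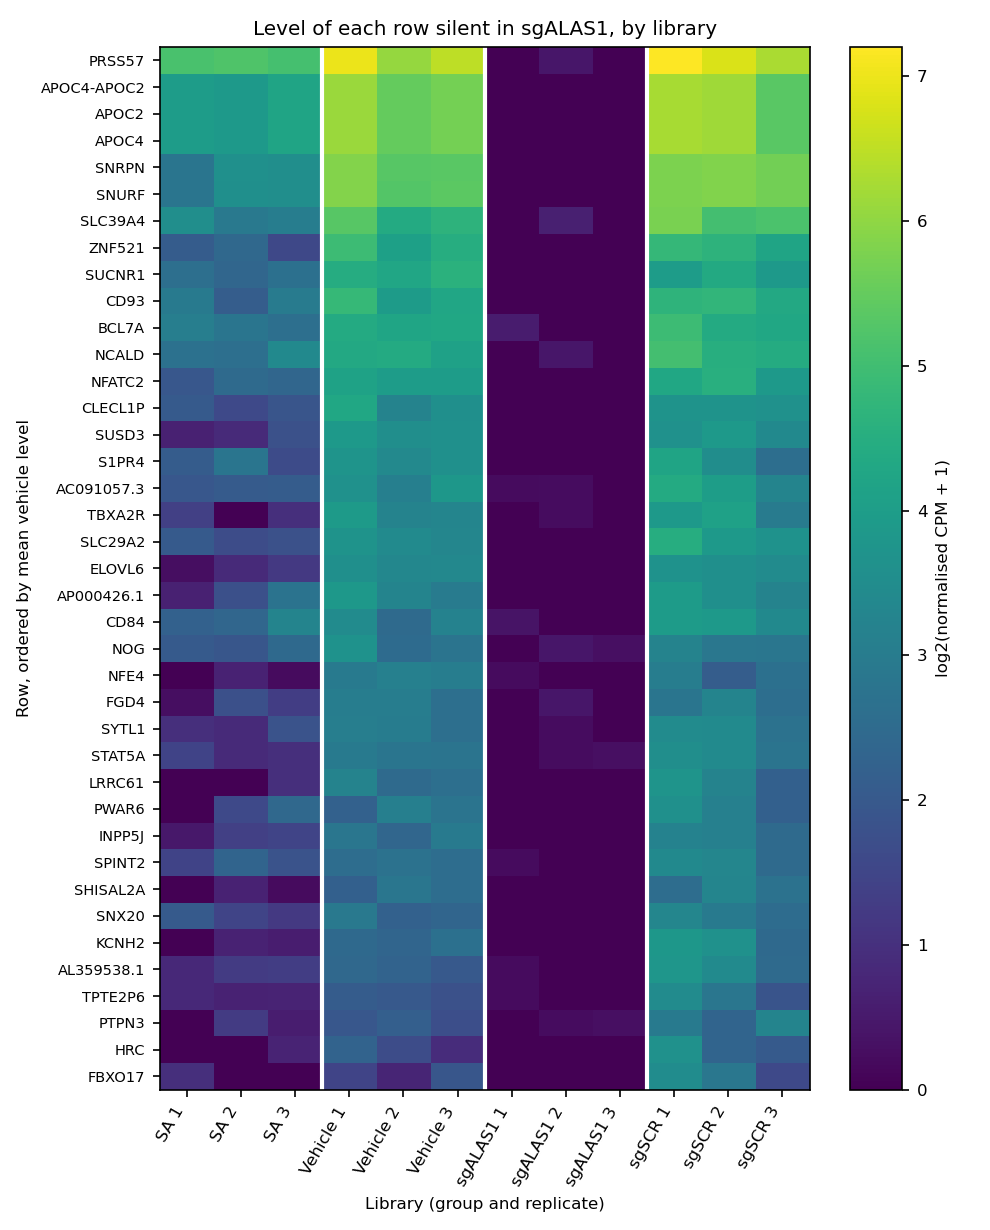
Level of the 39 silent rows (down the page, ordered by mean vehicle level) in each of the 12 libraries (across, in groups of 3), as log2 of normalised CPM plus 1. The sgALAS1 columns are dark throughout because of the read limits. Within most rows the SA columns lie between sgALAS1 and the brighter vehicle and sgSCR columns, while brightness also differs between rows with their level. In SA replicates 1, 2 and 3, 7, 4 and 1 rows are at 0 reads.

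SA and vehicle libraries took no part in the read limits, so those limits do not fix the test of SA against vehicle. That test is not wholly separate from the choice, which was made with earlier results of these data known. All 12 libraries also share 1 model fit. With SA, 32 of the 39 silent genes were lower at an adjusted p under 0.05, 7 did not pass and 0 were higher, where 6.24% of all 13832 tested rows were lower and 4.83% higher. All 39 rows passed the filter on low counts, and all 39 estimates were below 0. HRC and FBXO17 passed it only with the guide libraries included: with only the SA and vehicle libraries, 37 rows could be tested and 30 were lower. The median log2 fold change was -2.06 over the 39 rows and -0.01 over all tested rows, and with 1 row per locus it was -2.09, with 27 of 34 loci lower. Every SA library lay below every vehicle library in 36 of the 39 rows, which was the case for 14.8% of all tested rows. The rows in which these libraries overlapped were CD84, PWAR6 and FBXO17.

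With SA the mean of every silent gene was below its vehicle mean, and none fell within the limit of 3 reads. NFE4, SHISAL2A and HRC stood just above that limit, at 4 reads each over the SA libraries. Mean levels in SA were 3.46 to 72.3% of the vehicle mean, with a median of 23.8% and quartiles of 18.7 and 31.1%. All 39 rows had more than 3 reads over the SA libraries, at 4 to 560, against 33 to 1796 over the vehicle libraries. Summed over 1 row per locus, the SA libraries held 128.6, 134.7 and 149.6 CPM, against 619, 418.5 and 472 CPM in the vehicle libraries. Relative to the vehicle mean, the 3 SA libraries stood at 25.6, 26.8 and 29.7% by this sum. The median locus stood at 22.7, 24.0 and 26.0% in SA replicates 1, 2 and 3. The lower quartile over the 39 rows was 5.48, 12.9 and 17.9% in these replicates, and single rows differed more, such as AP000426.1 at 6.11, 25.04 and 59.5%.

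**Figure D2:**
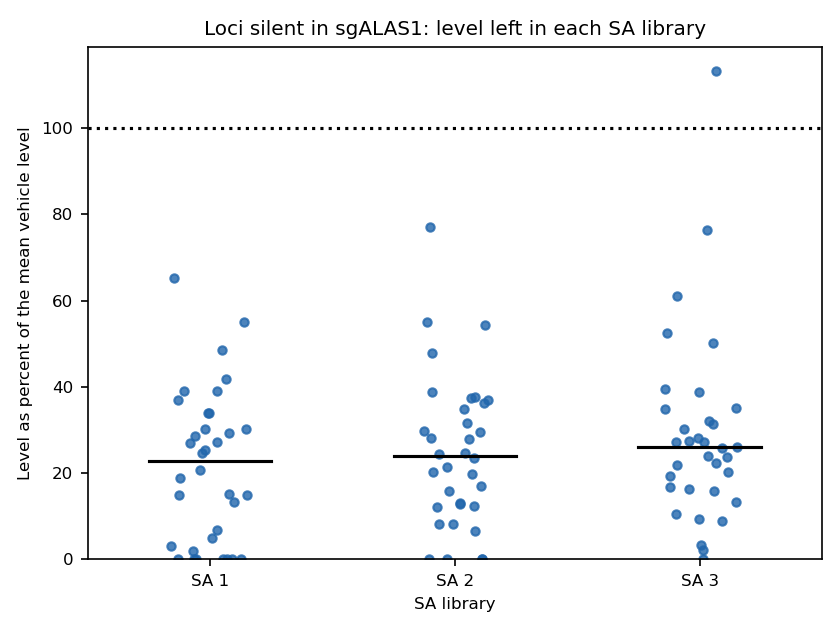
Level left in each SA library for the 34 loci (1 row each), as percent of that row's mean in the 3 vehicle libraries, with a bar at the median and a dotted line at 100%. Medians are 22.7, 24.0 and 26.0% in SA replicates 1, 2 and 3, and the only point above the dotted line is CD84 in SA replicate 3, at 113%.

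**Figure D3:**
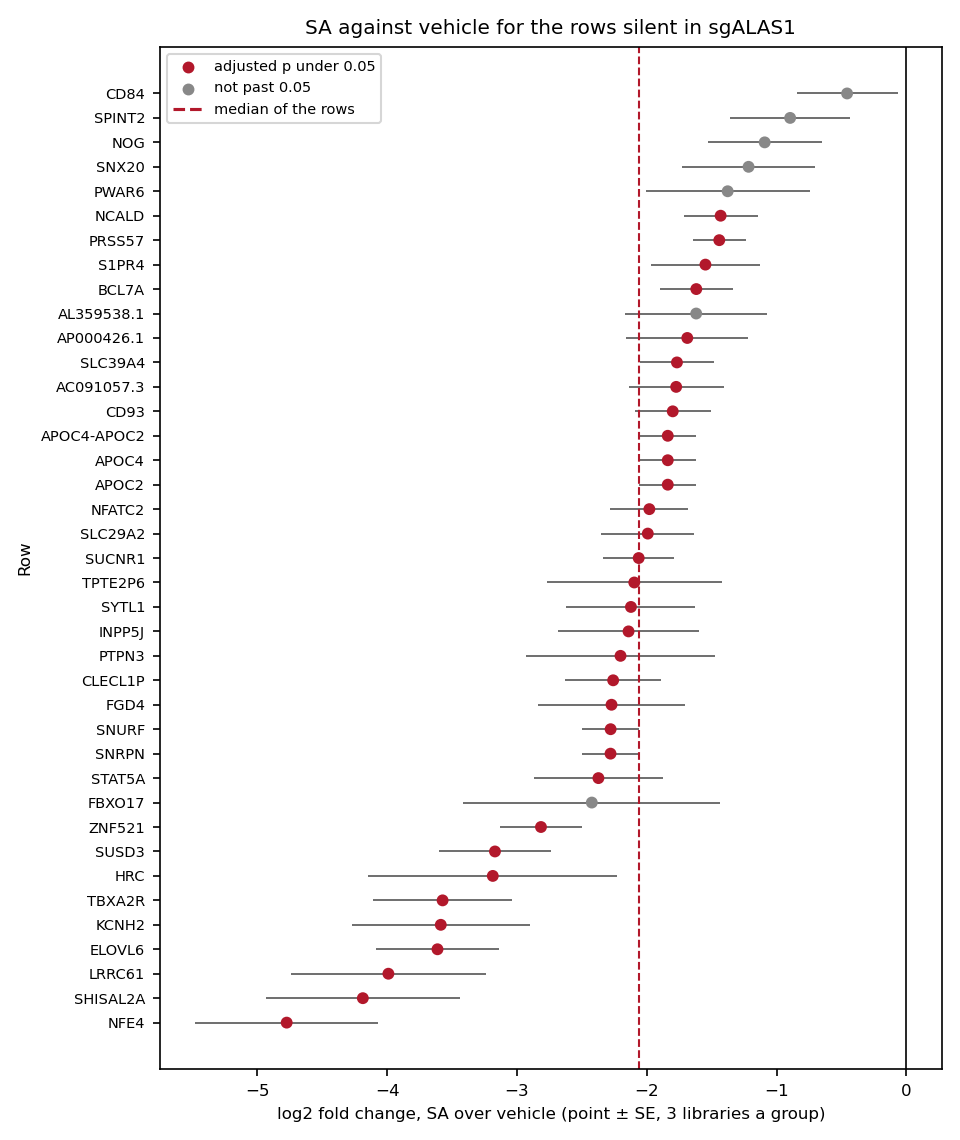
Fitted log2 fold change of SA over vehicle for each of the 39 silent rows, as a point with its SE, with the median of the rows at -2.06 as a dashed line and rows past an adjusted p of 0.05 in red. All points lie below 0, from -4.77 for NFE4 to -0.46 for CD84.

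For 26 of the 39 rows the estimate with SA lay within 2 SE of the median, a measure that depends on the precision of each row. It lay above by more than 2 SE for PRSS57, NCALD, CD84, NOG and SPINT2, and below for ZNF521, SUSD3, TBXA2R, ELOVL6, NFE4, LRRC61, SHISAL2A and KCNH2. Leaving out any 1 SA or vehicle library kept the call for 26 of the 32 genes that were lower. The other 6 were S1PR4, AP000426.1, INPP5J, TPTE2P6, PTPN3 and HRC, whose values without a library are given beside them.

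The silent gene with the most reads was PRSS57 on chromosome 19, a serine protease of neutrophil granules. PRSS57 had 34.4, 36.01 and 32.8 CPM in the SA libraries, against 125, 66.2 and 88.3 CPM in the vehicle libraries. It remained above 30 CPM in every SA library and was below every vehicle library, with a log2 fold change of -1.44 (adjusted p = 1.10e-05, SE 0.21). In sgALAS1 libraries PRSS57 had 0, 0.363 and 0 CPM, against 146, 110.1 and 77.04 CPM in the sgSCR libraries. Its RefSeq promoter is printed here because the gene had the highest level of the set, at chr19:695453-695702 of GRCh38.p14, minus strand, 5′ to 3′, with each CG, the dinucleotide that DNA methylation marks, in capitals.

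PRSS57: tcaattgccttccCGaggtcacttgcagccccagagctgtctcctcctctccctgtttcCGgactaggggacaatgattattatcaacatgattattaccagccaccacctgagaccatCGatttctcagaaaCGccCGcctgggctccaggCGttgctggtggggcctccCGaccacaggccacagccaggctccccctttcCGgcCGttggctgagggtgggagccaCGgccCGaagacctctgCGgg

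A cluster of apolipoprotein genes on chromosome 19 followed in level. APOC2, the cofactor of lipoprotein lipase, its neighbour APOC4 and the readthrough APOC4-APOC2 had identical counts in all 12 libraries, so they are 3 rows for 1 signal that cannot be assigned to 1 of them. APOC2 had 14.8, 13.5 and 17.5 CPM in the SA libraries, against 69.1, 44.7 and 50.4 CPM in the vehicle libraries. No SA library reached the lowest vehicle library, and the log2 fold change was -1.84 (adjusted p = 1.01e-06, SE 0.22). APOC2 had 0 reads in all sgALAS1 libraries, at least 341-fold below the pooled sgSCR level (75.9, 71.8 and 40.3 CPM in the single libraries). APOC1, a neighbouring gene, had 186 reads in sgALAS1, against 439 in sgSCR.

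Of the 39 silent genes, 3 were on a list of 100 symbols taken here as imprinted in at least some human tissue, namely SNRPN, SNURF and PWAR6, all of the SNRPN region of chromosome 15. SNRPN encodes a core protein of splicing ribonucleoproteins, SNURF is read from the same transcript, and PWAR6 is a noncoding RNA of the region. SNRPN had 6.02, 11.1 and 10.9 CPM in the SA libraries, against 57.2, 38.9 and 40.3 CPM in the vehicle libraries. SNRPN was lower in each SA library than in any vehicle library, with a log2 fold change of -2.28 (adjusted p = 2.91e-08, SE 0.22). SNRPN had 0 reads in all sgALAS1 libraries, at least 294-fold below the pooled sgSCR level (53.98, 56.1 and 50.3 CPM in the single libraries). SNURF overlaps SNRPN and is no independent measurement. SNURF had 6.02, 10.9 and 10.9 CPM in the SA libraries, against 57.2, 37.7 and 40.5 CPM in the vehicle libraries. Its log2 fold change was -2.28 (adjusted p = 3.07e-08, SE 0.22), and its 3 sgALAS1 libraries were at 0 reads beside 53.6, 55.8 and 49.6 CPM in the sgSCR libraries. PWAR6 had 0, 1.99 and 4.38 CPM in the SA libraries, against 3.72, 7.62 and 5.84 CPM in the vehicle libraries. The groups overlapped, and the log2 fold change of -1.38 (adjusted p = 0.171, SE 0.63) did not pass, although without SA replicate 3 it was -2.50 with an adjusted p of 0.0445. PWAR6 had 0 reads in all sgALAS1 libraries, at least 40.1-fold below the pooled sgSCR level (11.2, 7.71 and 3.64 CPM in the single libraries). The promoter shared by SNURF and the main SNRPN transcript lies in the imprinting centre, the stretch whose maternal copy is methylated, and is printed for that reason (RefSeq, GRCh38.p14, chr15:24954737-24954986, plus strand, CG in capitals).

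SNURF: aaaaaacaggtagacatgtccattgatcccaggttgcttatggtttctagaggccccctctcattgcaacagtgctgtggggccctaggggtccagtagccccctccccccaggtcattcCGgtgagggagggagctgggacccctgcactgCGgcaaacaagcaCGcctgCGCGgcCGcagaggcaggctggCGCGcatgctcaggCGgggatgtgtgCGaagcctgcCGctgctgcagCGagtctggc

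Along chromosome 15, the low levels in sgALAS1 ran from SNRPN to SNORD116-19, within the paternally read stretch. NIPA2, a magnesium transporter gene before SNRPN that is read from both copies, had 938 reads in sgALAS1, against 1226 in sgSCR, with a log2 fold change of -0.32 ± 0.13 that did not pass (adjusted p = 0.121). AC124312.1 had 0 reads in sgALAS1, against 61 in sgSCR. SNHG14, the long RNA that hosts the small nucleolar RNAs of the region, had 25 reads in sgALAS1, against 405 in sgSCR. It was lower but not silent, at a log2 fold change of -3.94 ± 0.36 (adjusted p = 1.61e-09). SNORD116-19, one of those small RNAs, had 0 reads in sgALAS1 and 42 in sgSCR, and AC124312.2 had 2 reads in sgALAS1 and 39 in sgSCR. Past them, UBE3A, a ubiquitin ligase imprinted in neurons only, had 1420 reads in sgALAS1 and 1584 in sgSCR, and its log2 fold change of -0.07 ± 0.12 did not pass (adjusted p = 0.791). ATP10A, a lipid flippase gene, had 31 reads in sgALAS1 and 59 in sgSCR (adjusted p = 0.288), and HERC2, another ubiquitin ligase gene, had 571 in sgALAS1 and 619 in sgSCR (log2 fold change -0.04 ± 0.16, adjusted p = 0.925). The direction of UBE3A and HERC2 turned when single libraries were left out.

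With SA, SNHG14 had 116 reads in SA, against 427 in vehicle libraries, and was lower, with a log2 fold change of -1.69 ± 0.29 (adjusted p = 1.44e-04). AC124312.1 had 14 reads in SA and 71 in vehicle (log2 fold change -2.10 ± 0.66, adjusted p = 0.0368), a call lost without any 1 of 5 libraries, with an adjusted p of up to 0.153. SNORD116-19 had 1 read in SA and 22 in vehicle, with an adjusted p of 0.0549, or 0.0485 without vehicle replicate 2 and 0.0490 with DESeq2. AC124312.2 had 6 reads in SA and 40 in vehicle and did not pass (log2 fold change -2.53 ± 0.95, adjusted p = 0.0860). At the edges, NIPA2 had 857 reads in SA and 1178 in vehicle (-0.25 ± 0.13, adjusted p = 0.248). UBE3A had 1664 reads in SA and 2086 in vehicle (log2 fold change -0.13 ± 0.12, adjusted p = 0.558), and HERC2 had 640 in SA and 681 in vehicle (0.09 ± 0.16, adjusted p = 0.778). ATP10A had 45 reads in SA and 112 in vehicle and did not pass (log2 fold change -1.11 ± 0.48, adjusted p = 0.141). The small RNAs and the AC124312 rows lie within SNHG14 or beside it, and the strand setting of the counting is not given, so that reads of overlapping genes cannot be told apart.

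**Figure D4:**
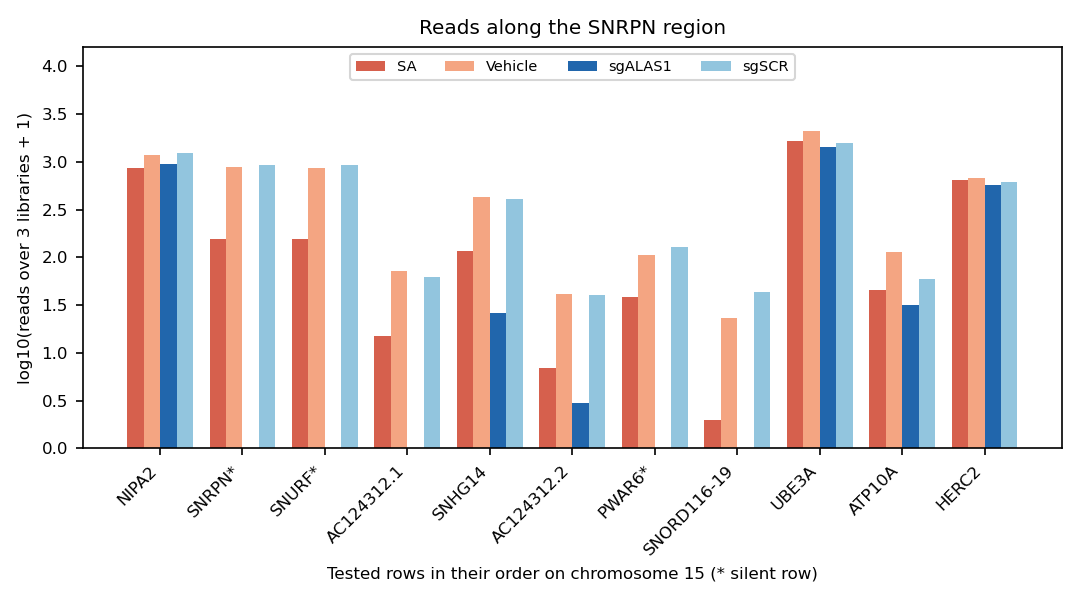
Reads summed over the 3 libraries of each group, as log10 of reads plus 1, for the tested rows along chromosome 15 around SNRPN, in their order on the chromosome, with asterisks on the silent rows. The sgALAS1 bar is at 0 for SNRPN, SNURF, AC124312.1, PWAR6 and SNORD116-19 and near the others' height for NIPA2, UBE3A and HERC2.

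No other gene of the imprinted list was among the silent ones. Of the list, 38 genes were tested. Of the 35 that were not silent, 8 were lower and 2 higher in sgALAS1 than in sgSCR, where 6.85% of all tested rows were lower and 4.88% higher. With SA, 7 of the 35 were lower and 3 higher, where 6.24% of all tested rows were lower and 4.83% higher. Those called in both experiments were SNHG14, CRYBG1, MEST, WT1, WT1-AS and RB1, all lower in both, and PHLDA2, higher in both. CRYBG1 had 55 reads in sgALAS1, against 496 in sgSCR (log2 fold change -3.06 ± 0.31, adjusted p = 1.66e-08), and 136 in SA, against 524 in vehicle (-1.72 ± 0.28, adjusted p = 6.90e-05). WT1-AS, antisense to the zinc finger gene WT1, had 44 reads in sgALAS1 and 255 in sgSCR (-2.51 ± 0.45, adjusted p = 2.01e-04), and 39 in SA and 216 in vehicle (-2.28 ± 0.46, adjusted p = 0.00100). WT1 had 83 reads in sgALAS1 and 302 in sgSCR, and 85 in SA and 236 in vehicle. MEST had 243 reads in sgALAS1 and 728 in sgSCR, and 301 in SA and 544 in vehicle. The SA calls of WT1 (adjusted p = 0.0126) and MEST (adjusted p = 0.0442) were lost when single libraries were left out, with adjusted p up to 0.0989 and 0.179. RB1, the retinoblastoma tumour suppressor on chromosome 13, had 571 reads in sgALAS1 and 1016 in sgSCR, and 593 in SA and 1202 in vehicle. Its log2 fold changes were -0.77 in sgALAS1 and -0.81 with SA. Over all tested rows of chromosome 13 the medians were -0.36 in sgALAS1 and -0.39 with SA, and the part of this shift in the RB1 values was not tested. PHLDA2 had 2410 reads in sgALAS1 and 1600 in sgSCR, and 2576 in SA and 1369 in vehicle.

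Cell surface receptors were 5 of the silent genes. SUCNR1 on chromosome 3 is the receptor for extracellular succinate. SUCNR1 had 5.25, 4.18 and 5.35 CPM in the SA libraries, against 20.8, 18.1 and 23.2 CPM in the vehicle libraries. The log2 fold change was -2.06 (adjusted p = 5.50e-06, SE 0.27), and every SA library was below the lowest vehicle value. SUCNR1 had 0 reads in all sgALAS1 libraries, at least 89.7-fold below the pooled sgSCR level (14.9, 19.8 and 13.9 CPM in the single libraries). CD93 on chromosome 20 is a C-type lectin-like glycoprotein of myeloid and endothelial cells. CD93 had 6.80, 3.38 and 6.97 CPM in the SA libraries, against 27.3, 14.6 and 18.2 CPM in the vehicle libraries. All SA libraries were below all vehicle libraries, with a log2 fold change of -1.80 (adjusted p = 9.51e-05, SE 0.29). CD93 had 0 reads in all sgALAS1 libraries, at least 128-fold below the pooled sgSCR level (24.7, 25.9 and 19.5 CPM in the single libraries). The neighbour of CD93 on chromosome 20 is THBD, the thrombomodulin gene, which was higher in both experiments, at 1232 reads in sgALAS1 and 451 in sgSCR (log2 fold change 1.53 ± 0.16, adjusted p = 1.71e-08) and 865 in SA and 378 in vehicle (1.40 ± 0.16, adjusted p = 3.27e-07).

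TBXA2R, the thromboxane receptor, and S1PR4, a receptor of leukocytes for sphingosine-1-phosphate, are both on chromosome 19. TBXA2R had 1.55, 0 and 0.973 CPM in the SA libraries, against 14.1, 8.29 and 8.67 CPM in the vehicle libraries. TBXA2R was at 8.14% of vehicle, with a log2 fold change of -3.57 (adjusted p = 2.55e-05, SE 0.54). In sgALAS1 libraries TBXA2R had 0, 0.182 and 0 CPM, against 13.7, 16.4 and 6.94 CPM in the sgSCR libraries. S1PR4 had 3.30, 5.97 and 2.11 CPM in the SA libraries, against 12.1, 9.48 and 11.3 CPM in the vehicle libraries. S1PR4 had a log2 fold change of -1.55 (adjusted p = 0.0152, SE 0.42), and the call was lost without SA replicate 1 or 3, with an adjusted p of up to 0.094. S1PR4 had 0 reads in all sgALAS1 libraries, at least 58.8-fold below the pooled sgSCR level (17.5, 10.6 and 5.13 CPM in the single libraries). CD84 on chromosome 1, an adhesion receptor of the SLAM family, had the smallest difference between SA and vehicle of all silent genes. CD84 had 3.69, 4.18 and 8.59 CPM in the SA libraries, against 10.1, 4.57 and 8.14 CPM in the vehicle libraries. The groups overlapped and the log2 fold change of -0.46 (adjusted p = 0.517, SE 0.39) did not pass. In sgALAS1 libraries CD84 had 0.309, 0 and 0 CPM, against 14.3, 13.5 and 9.59 CPM in the sgSCR libraries.

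CLECL1P on chromosome 12 is a C-type lectin-like gene, and SUSD3 on chromosome 9 encodes a membrane protein with a sushi domain. CLECL1P had 3.11, 1.99 and 2.76 CPM in the SA libraries, against 18.5, 8.29 and 10.97 CPM in the vehicle libraries. SA and vehicle did not overlap for CLECL1P (log2 fold change -2.26, SE 0.37, adjusted p = 1.10e-04). CLECL1P had 0 reads in all sgALAS1 libraries, at least 64.5-fold below the pooled sgSCR level (11.95, 11.9 and 11.4 CPM in the single libraries). SUSD3 had 0.583, 0.796 and 2.43 CPM in the SA libraries, against 13.9, 10.8 and 11.3 CPM in the vehicle libraries. SUSD3 was at 10.6% of its vehicle level, with a log2 fold change of -3.17 (adjusted p = 8.33e-06, SE 0.43). SUSD3 had 0 reads in all sgALAS1 libraries, at least 63.9-fold below the pooled sgSCR level (11.6, 13.5 and 9.75 CPM in the single libraries).

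The promoter of SUCNR1 held no CG and that of BCL7A, a silent gene of chromosome 12, held 38 within 250 bases, so the silent genes include windows at both ends of CG content. Both are printed for that contrast (RefSeq, GRCh38.p14, plus strand, CG in capitals, at chr3:151873393-151873642 and chr12:122021634-122021883). The other windows printed here held 12 CG in SNURF and 12 in PRSS57. Over all 35116 promoter windows of the RefSeq table, 93.9% held CG in the same 250 bases, with a median of 11; CG reads the same on both strands. RefSeq windows were found for 22 of the 39 genes, too few to compare composition between the silent genes and all promoters.

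SUCNR1: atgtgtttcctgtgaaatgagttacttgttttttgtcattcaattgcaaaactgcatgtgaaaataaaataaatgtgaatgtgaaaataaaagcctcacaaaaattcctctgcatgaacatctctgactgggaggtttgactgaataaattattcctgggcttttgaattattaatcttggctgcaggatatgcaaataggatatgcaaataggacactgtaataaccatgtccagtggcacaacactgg
BCL7A: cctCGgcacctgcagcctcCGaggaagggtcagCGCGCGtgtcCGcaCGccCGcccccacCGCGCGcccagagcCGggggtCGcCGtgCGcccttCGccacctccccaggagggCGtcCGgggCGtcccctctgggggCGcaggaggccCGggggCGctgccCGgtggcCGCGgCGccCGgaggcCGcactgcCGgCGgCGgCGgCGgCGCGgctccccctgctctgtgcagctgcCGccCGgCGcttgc

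Transcription factors and chromatin genes were 5 of the silent genes. ZNF521 on chromosome 18 encodes a zinc finger cofactor of haematopoietic progenitors. ZNF521 had 3.30, 4.38 and 1.95 CPM in the SA libraries, against 29.5, 16.1 and 21.2 CPM in the vehicle libraries. All SA libraries were below 5 CPM and all vehicle libraries above 15 CPM, with a log2 fold change of -2.82 (adjusted p = 4.25e-07, SE 0.32). ZNF521 had 0 reads in all sgALAS1 libraries, at least 124-fold below the pooled sgSCR level (26.9, 24.1 and 17.5 CPM in the single libraries). It was the only silent gene among 413 tested genes with zinc finger symbols. Of these 413 genes, 7 were lower and 10 higher with SA, where 6.24% of all tested rows were lower and 4.83% higher. BCL7A encodes a subunit of SWI/SNF chromatin remodelling complexes. BCL7A had 7.38, 5.97 and 5.19 CPM in the SA libraries, against 20.3, 17.9 and 18.6 CPM in the vehicle libraries. BCL7A kept 32.6% of its vehicle level (log2 fold change -1.62, SE 0.28, adjusted p = 1.90e-04). In sgALAS1 libraries BCL7A had 0.463, 0 and 0 CPM, against 29.7, 20.1 and 18.7 CPM in the sgSCR libraries.

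NFATC2 on chromosome 20 is a transcription factor switched on by calcineurin, and STAT5A on chromosome 17 one switched on by cytokine receptors. NFATC2 had 2.91, 4.58 and 4.22 CPM in the SA libraries, against 16.8, 14.7 and 14.9 CPM in the vehicle libraries. NFATC2 was at 25.2% of vehicle, with a log2 fold change of -1.98 (adjusted p = 3.84e-05, SE 0.30). NFATC2 had 0 reads in all sgALAS1 libraries, at least 101-fold below the pooled sgSCR level (18.7, 22.5 and 13.7 CPM in the single libraries). STAT5A had 1.75, 0.796 and 0.973 CPM in the SA libraries, against 6.62, 5.92 and 5.84 CPM in the vehicle libraries. STAT5A was lower in every SA library, with a log2 fold change of -2.37 (adjusted p = 0.00151, SE 0.50). In sgALAS1 libraries STAT5A had 0, 0.182 and 0.222 CPM, against 10.8, 9.80 and 5.79 CPM in the sgSCR libraries. NFE4 on chromosome 7, a factor described for fetal globin genes, had the lowest estimate of all silent genes. NFE4 had 0, 0.597 and 0.162 CPM in the SA libraries, against 6.90, 7.79 and 7.26 CPM in the vehicle libraries. It was at 3.46% of its vehicle level (log2 fold change -4.77, SE 0.70, adjusted p = 1.88e-05). In sgALAS1 libraries NFE4 had 0.154, 0 and 0 CPM, against 7.37, 3.38 and 5.29 CPM in the sgSCR libraries. FBXL13, which overlaps NFE4, had 7 reads in sgALAS1 and 67 in sgSCR.

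Transporters and a channel made up the next group. SLC39A4 on chromosome 8 imports zinc into the cell. SLC39A4 had 10.9, 6.57 and 7.30 CPM in the SA libraries, against 39.6, 20.1 and 24.1 CPM in the vehicle libraries. Levels were lower in every SA library, with a log2 fold change of -1.77 (adjusted p = 6.03e-05, SE 0.28). In sgALAS1 libraries SLC39A4 had 0, 0.545 and 0 CPM, against 52.6, 32.3 and 34.6 CPM in the sgSCR libraries. SLC29A2 on chromosome 11 is an equilibrative nucleoside transporter. SLC29A2 had 3.11, 2.19 and 2.43 CPM in the SA libraries, against 12, 9.99 and 8.85 CPM in the vehicle libraries. The log2 fold change was -1.99 (adjusted p = 3.48e-04, SE 0.36). SLC29A2 had 0 reads in all sgALAS1 libraries, at least 84.6-fold below the pooled sgSCR level (21.5, 13.98 and 11.7 CPM in the single libraries). KCNH2 on chromosome 7 encodes the hERG potassium channel. KCNH2 had 0, 0.597 and 0.486 CPM in the SA libraries, against 4.55, 4.06 and 5.31 CPM in the vehicle libraries. KCNH2 was at 7.78% of vehicle in SA (log2 fold change -3.59, SE 0.68, adjusted p = 6.65e-04). KCNH2 had 0 reads in all sgALAS1 libraries, at least 52.5-fold below the pooled sgSCR level (13.1, 11.6 and 4.46 CPM in the single libraries).

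Enzymes and signalling proteins followed. NCALD on chromosome 8 encodes neurocalcin delta, a calcium sensor. NCALD had 5.44, 5.17 and 9.73 CPM in the SA libraries, against 19.3, 19.97 and 16.3 CPM in the vehicle libraries. It kept 36.6% of its vehicle level (log2 fold change -1.43, SE 0.29, adjusted p = 9.12e-04). In sgALAS1 libraries NCALD had 0, 0.363 and 0 CPM, against 31.9, 21.7 and 20.7 CPM in the sgSCR libraries. AP000426.1 overlaps NCALD on the opposite strand, and its reads cannot be told apart from those of NCALD because the strand setting is not given. AP000426.1 had 0.583, 2.39 and 5.67 CPM in the SA libraries, against 13.2, 8.46 and 6.90 CPM in the vehicle libraries. Its call (log2 fold change -1.69, SE 0.47, adjusted p = 0.0178) was lost when vehicle replicate 1 or either of SA replicates 1 and 2 was left out, with an adjusted p of up to 0.0956. AP000426.1 had 0 reads in all sgALAS1 libraries, at least 60.4-fold below the pooled sgSCR level (14.3, 10.9 and 8.27 CPM in the single libraries). Over all tested rows of chromosome 8, which holds NCALD, AP000426.1 and SLC39A4, the median log2 fold change was -0.34 in sgALAS1 and -0.25 with SA. Over those of chromosome 13 it was -0.36 in sgALAS1 and -0.39 with SA, and the part of these chromosome-wide shifts in the values of their silent genes was not tested. Without the silent genes of both chromosomes the median with SA was -2.13.

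ELOVL6 on chromosome 4 elongates fatty acids. ELOVL6 had 0.194, 0.796 and 1.30 CPM in the SA libraries, against 11.04, 9.14 and 9.38 CPM in the vehicle libraries. The enzyme's RNA was at 7.74% of vehicle, with a log2 fold change of -3.61 (adjusted p = 4.74e-06, SE 0.47). ELOVL6 had 0 reads in all sgALAS1 libraries, at least 59.8-fold below the pooled sgSCR level (11.8, 10.9 and 10.1 CPM in the single libraries). SYTL1 on chromosome 1 is an effector of the vesicle GTPase Rab27. SYTL1 had 0.971, 0.796 and 2.59 CPM in the SA libraries, against 7.45, 7.11 and 5.13 CPM in the vehicle libraries. Its log2 fold change was -2.12 (adjusted p = 0.00460, SE 0.50). In sgALAS1 libraries SYTL1 had 0, 0.182 and 0 CPM, against 10.2, 9.96 and 5.62 CPM in the sgSCR libraries. FGD4 on chromosome 12 activates the GTPase Cdc42. FGD4 had 0.194, 2.39 and 1.46 CPM in the SA libraries, against 7.31, 7.28 and 5.13 CPM in the vehicle libraries. FGD4 levels did not overlap between SA and vehicle, and the log2 fold change was -2.27 (adjusted p = 0.00806, SE 0.57). In sgALAS1 libraries FGD4 had 0, 0.363 and 0 CPM, against 5.98, 8.52 and 5.13 CPM in the sgSCR libraries.

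INPP5J on chromosome 22 is an inositol phosphatase and PTPN3 on chromosome 9 a tyrosine phosphatase. INPP5J had 0.389, 1.59 and 1.78 CPM in the SA libraries, against 6.07, 4.23 and 6.72 CPM in the vehicle libraries. The call (log2 fold change -2.14, SE 0.55, adjusted p = 0.0101) was lost without SA replicate 1, at an adjusted p of 0.0558. INPP5J had 0 reads in all sgALAS1 libraries, at least 37.5-fold below the pooled sgSCR level (8.17, 7.88 and 4.63 CPM in the single libraries). PTPN3 had 0, 1.39 and 0.486 CPM in the SA libraries, against 2.90, 3.55 and 2.30 CPM in the vehicle libraries. For PTPN3 (log2 fold change -2.20, SE 0.73, adjusted p = 0.0475) leaving out any library but SA replicate 2 lost the call, with an adjusted p of up to 0.179. In sgALAS1 libraries PTPN3 had 0, 0.182 and 0.222 CPM, against 6.77, 4.02 and 8.60 CPM in the sgSCR libraries. HRC on chromosome 19 encodes a calcium-binding protein of the sarcoplasmic reticulum, known from muscle. HRC had 0, 0 and 0.649 CPM in the SA libraries, against 3.86, 2.20 and 0.885 CPM in the vehicle libraries. Its call (log2 fold change -3.19, SE 0.96, adjusted p = 0.0295) was lost when replicate 1 or 2 of either group was left out, with an adjusted p of up to 0.126. With only the SA and vehicle libraries, HRC did not pass the filter on low counts and was not tested. HRC had 0 reads in all sgALAS1 libraries, at least 32.4-fold below the pooled sgSCR level (11.6, 4.02 and 3.14 CPM in the single libraries).

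Apart from CD84 and PWAR6, 5 silent genes did not pass with SA, and each had a mean below its vehicle mean. NOG on chromosome 17, a secreted antagonist of bone morphogenetic proteins, was at 46.8% (log2 fold change -1.09, SE 0.44, adjusted p = 0.109). SPINT2 on chromosome 19, a Kunitz-type protease inhibitor, was at 53.7% (log2 fold change -0.90, SE 0.46, adjusted p = 0.236). SNX20 on chromosome 16, which sorts the selectin ligand PSGL-1, was at 43.4% (log2 fold change -1.22, SE 0.51, adjusted p = 0.132). FBXO17 on chromosome 19, an F-box gene, had 5 reads in SA and 33 in vehicle (log2 fold change -2.42, SE 0.99, adjusted p = 0.118). Without SA replicate 1 it passed at an adjusted p of 0.0237, but the SA libraries left had 0 reads and the estimate was -6.37. FBXO17 passed the filter on low counts only with the guide libraries included. For these 4 genes and for AL359538.1 on chromosome 13 (log2 fold change -1.62, SE 0.55, adjusted p = 0.0528), a p that missed the threshold does not show that levels were alike.

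The remaining silent genes have no role given here. LRRC61 on chromosome 7 encodes a protein with leucine-rich repeats. LRRC61 had 0, 0 and 0.973 CPM in the SA libraries, against 8.28, 4.57 and 5.13 CPM in the vehicle libraries. LRRC61 had no read in SA replicates 1 and 2, with a log2 fold change of -3.99 (adjusted p = 5.66e-04, SE 0.75). LRRC61 had 0 reads in all sgALAS1 libraries, at least 43.2-fold below the pooled sgSCR level (12.3, 8.36 and 3.64 CPM in the single libraries). SHISAL2A on chromosome 1 is a member of the Shisa-like family. SHISAL2A had 0, 0.597 and 0.162 CPM in the SA libraries, against 3.59, 6.09 and 4.95 CPM in the vehicle libraries. It was at 5.19% of vehicle (log2 fold change -4.19, SE 0.75, adjusted p = 2.99e-04). SHISAL2A had 0 reads in all sgALAS1 libraries, at least 35.9-fold below the pooled sgSCR level (4.98, 8.68 and 5.62 CPM in the single libraries). AC091057.3 had 2.91, 3.18 and 3.24 CPM in the SA libraries, against 11.6, 7.62 and 12.9 CPM in the vehicle libraries. AC091057.3, on chromosome 15 outside the SNRPN region, was lower with a log2 fold change of -1.77 (adjusted p = 0.00129, SE 0.37). In sgALAS1 libraries AC091057.3 had 0.154, 0.182 and 0 CPM, against 20.1, 14.9 and 8.60 CPM in the sgSCR libraries. TPTE2P6 on chromosome 13 is a pseudogene whose reads may be shared with its relatives, and it overlaps AL359538.1. TPTE2P6 had 0.777, 0.597 and 0.649 CPM in the SA libraries, against 3.31, 3.05 and 2.48 CPM in the vehicle libraries. Leaving out any 1 library lost its call (log2 fold change -2.10, SE 0.67, adjusted p = 0.0412), with an adjusted p of up to 0.113. In sgALAS1 libraries TPTE2P6 had 0.154, 0 and 0 CPM, against 10.2, 6.11 and 2.65 CPM in the sgSCR libraries.

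The number of silent loci differed between chromosomes. Chromosome 19 held 7 of the 34 loci, or 20.6%, and 7.77% of the tested autosomal rows, and chromosomes 2, 5, 6, 10, 14 and 21 held none. The 7 loci of chromosome 19 were those of PRSS57, S1PR4, TBXA2R, SPINT2, FBXO17, the APOC4-APOC2 rows and HRC. Chromosomes 1, 7, 12 and 15 held 3 loci each. No test was made of this spread.

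For each silent row, the nearest tested row on each side that is not itself silent was taken as its neighbour, so that silent rows lying side by side share neighbours. This gave 69 neighbours, all past the filter on low counts, and 48 of them had at least 90 reads in sgALAS1. In sgALAS1 against sgSCR, 11 of the 69 passed, which is 15.9%, against 11.7% of all tested rows. Lower were 9 of the 69 (13%, against 6.85% of all tested rows) and higher were 2 (2.9%, against 4.88%). The median log2 fold change of the 69 was -0.14. With SA, 9 of the 69 passed, which is 13%, against 11.1% of all tested rows, with a median of -0.05. Of the 69, 5 were lower (7.25%, against 6.24% of all tested rows) and 4 higher (5.8%, against 4.83%). Both neighbours were uncalled in sgALAS1 for 26 of the 39 silent rows, and both were called for 1. The same shares were not computed for all tested rows, so these counts are a description.

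Of the 9 lower neighbours, AC124312.1, AC124312.2, AC007608.3 and FBXL13 overlap a silent gene, and SNORD116-19 lies in the SNRPN region. AC007608.3 had 0 reads in sgALAS1 and 33 in sgSCR, and 21 in SA and 27 in vehicle. The calls of AC124312.2 and FBXL13 were lost when single libraries were left out, with adjusted p up to 0.191 and 0.0529. GNA15 on chromosome 19, next to S1PR4, encodes a G protein alpha subunit of haematopoietic cells. It had 158 reads in sgALAS1 and 890 in sgSCR (log2 fold change -2.42 ± 0.20, adjusted p = 3.64e-10), and 312 in SA and 718 in vehicle (-0.99 ± 0.19, adjusted p = 6.42e-04). TRPM4 on chromosome 19, a cation channel gene next to HRC, had 25 reads in sgALAS1 and 376 in sgSCR (-3.80 ± 0.33, adjusted p = 6.49e-10), while 238 reads in SA and 440 in vehicle did not pass (-0.65 ± 0.25, adjusted p = 0.0889, or 0.0368 without vehicle replicate 3).

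AC127502.2, beside AC091057.3 on chromosome 15, had 92 reads in sgALAS1 and 392 in sgSCR (-2.06 ± 0.32, adjusted p = 2.87e-05), and 86 in SA and 380 in vehicle (-1.94 ± 0.32, adjusted p = 1.05e-04). For APOC1 the log2 fold change was -1.23 ± 0.28 in sgALAS1 (adjusted p = 0.00262, or 0.084 without sgSCR replicate 1), and with SA it was -0.90 ± 0.26 (adjusted p = 0.0226), a call lost without any 1 of 4 libraries with an adjusted p of up to 0.0949. Besides THBD, the higher neighbour was GABARAPL1 on chromosome 12, an autophagy gene, with 345 reads in sgALAS1 and 221 in sgSCR (0.70 ± 0.23, adjusted p = 0.0456), a call lost in 5 of the fits that left out 1 library. Of the 69 neighbours, 13% were thus lower in sgALAS1, against 6.85% of all tested rows. Higher were 2.9%, against 4.88% of all tested rows.

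**Figure D5:**
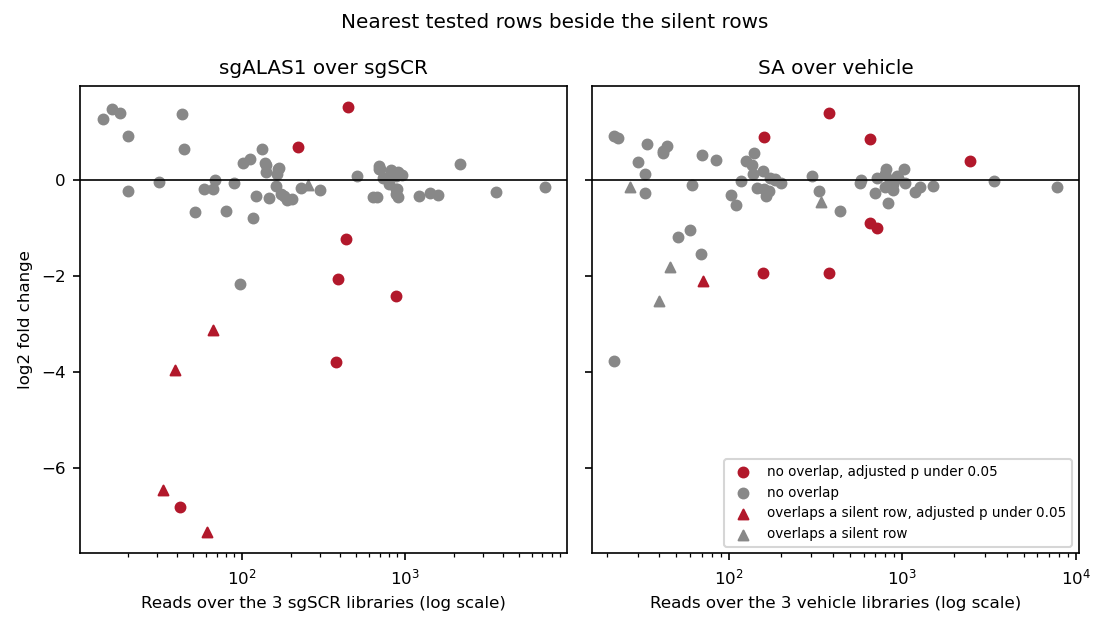
Log2 fold change of the 69 tested rows nearest to the silent rows and not silent themselves, sgALAS1 over sgSCR on the left and SA over vehicle on the right, against the reads over the 3 sgSCR or vehicle libraries on a log axis. Red marks rows past an adjusted p of 0.05, triangles mark rows that overlap a silent row, and most points lie near 0; fitted values below -6 belong to rows at 0 reads in sgALAS1 and depend on the prior count.

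The silent genes were expressed in the control cells of both experiments. The mean in sgSCR was 73.1 to 351% of the vehicle mean, with a median of 121%, and the sgSCR and vehicle libraries overlapped in 36 of the 39 rows. The rows in which they did not overlap were NCALD, AL359538.1 and PTPN3, all higher in sgSCR. The share of all tested rows with such overlap was not computed, so this count does not show whether the silent genes differ from other rows. FBXO17, at the upper end with 351%, had 10.4, 6.27 and 1.98 CPM in sgSCR, against 1.79, 0.677 and 2.83 CPM in vehicle. The read limits set a minimum for sgSCR and no limit for vehicle, so these values are a description.

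Rows within the limits that are not autosomal behaved in SA as follows. The 4 rows of chromosome Y were at 22.9 to 32.6% of vehicle with log2 fold changes of -2.13 to -1.62, and all 4 passed. The row of chromosome X was at 47.1% and did not pass (log2 fold change -1.10, adjusted p = 0.163). The 3 rows without an annotated chromosome had log2 fold changes of -3.10 to -2.09, and all 3 passed.

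No silent gene was on the lists of genes absent through common null haplotypes (12 tested), of germline and cancer-testis genes (6 tested) or of homeobox genes (15 tested). With SA, 1 of the 12 was lower and 0 were higher, 1 of the 6 was lower and 0 higher, and 2 of the 15 were lower and 2 higher. In sgALAS1 against sgSCR, 2 of the 12 were lower and 2 higher, 1 of the 6 was lower and 0 higher, and 3 of the 15 were lower and 3 higher. The SA shares stand beside 6.24% lower and 4.83% higher over all tested rows, and the sgALAS1 shares beside 6.85% lower and 4.88% higher. ZFP57, of the first list, had means of 0 CPM in sgALAS1 and 1.40 CPM in sgSCR, and TEX15, a germline gene, had 0.309 CPM in sgALAS1 and 7.597 CPM in sgSCR; both were named after their values were seen.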

How the data were processed

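RNA of 12 OCI-AML3 libraries was measured. Per the labels' protocols, QuantSeq 3′ libraries were made and sequenced as single-end reads. The submitters' processing notes name bcl2fastq 2.17.1.14, cutadapt 1.14, HISAT2 2.0.4, featureCounts of Subread 2.0.0, edgeR 3.34.0, limma 3.48.3 and hg19. The annotation release, the strandedness and the rule for multi-mapping reads were not given in the sources used here. Values as deposited by the authors are raw counts of reads per Ensembl gene.

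Names and chromosomes came from GENCODE 29 and a current gene table for 52338 of 57905 rows, and 5567 rows had none. These references served only for names, chromosomes and gene order. Testing used edgeR 4.0.16 in R 4.3.3: all 12 libraries with 1 coefficient per group, TMM normalisation, filterByExpr by group (13832 rows kept) and the two-sided quasi-likelihood F-test, with Benjamini-Hochberg adjustment across the tested rows and a threshold of 0.05. An SE is the size of the log2 fold change divided by the square root of F. Levels are CPM scaled by TMM. The spread between libraries of a group, as a biological coefficient of variation, came to 16.4%. Values of sgALAS1 and sgSCR are not tested for the silent genes, because they chose them.

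The members and lists were chosen with earlier results of these data known. The rule for named genes gave every member with its chromosome, values in each library for members past the test, for the 12 with most vehicle reads and for the 5 with most sgSCR reads, genes next to the read limits, and neighbours called in sgALAS1; the genes along chromosome 15, the imprinted genes called in both experiments, MXRA8 and the 3 tested lymphoid markers were named after their values were seen. Alternatives were DESeq2 1.42.0, other size factors, no filter, fewer libraries, a replicate block and other read limits. The fit was tested on simulated counts. A marker gene is not reported here. Depth limits the precision of genes with few reads, and counts without molecular identifiers do not show how many molecules lie behind them.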

Additional observations from a re-analysis of the deposited data

How the results depend on the processing

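The number of silent genes followed the read limits: 23 with 0 reads in sgALAS1, 70 with up to 10 reads, 59 with at least 60 sgSCR reads, 25 with at least 150, and 35 with limits scaled to depth, against 39. With SA, 32 of them were lower with other size factors, without a filter and with a replicate block, 33 with DESeq2, 30 of the 37 testable with only the SA and vehicle libraries, and 27 to 30 when 1 library was left out. The median log2 fold change was -1.98 with only the SA and vehicle libraries, -2.13 without genes of chromosomes 8 and 13 (an alternative chosen after seeing the data) and -2.06 to -1.91 when 1 library was left out. Over all tested rows, 863 were lower with SA in the main fit. That number was 833 with other size factors, 875 without a filter, 946 with a replicate block and 925 with DESeq2. It was 731 with only the SA and vehicle libraries, and 544 to 833 when 1 SA or vehicle library was left out. The rows tested numbered 12921 to 29319 over these settings. In either direction, 1531 were called with SA, but 955 when vehicle replicate 2 was left out, and 982 and 954 when SA replicate 1 or 3 was. Neighbours called in sgALAS1 numbered 8 to 10 when 1 library was left out, 12 with the replicate block and 18 of 136 with 2 on each side.

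Same-numbered libraries did not deviate together (correlations -0.0661 to 0.0572), and not every library correlated best with its own number. With 3 libraries a group, this cannot show whether numbers mark a shared culture or preparation. The main fit used no pairing. When 1 library was left out, log2 fold changes turned sign for AC007608.3 with SA (-1.01 to 0.27, with 0.04 among them), for HERC2 in sgALAS1 (-0.097 to 0.030) and for UBE3A in sgALAS1 (-0.16 to 0.032), of which none was called. Among the named genes' alternatives, 961 kept direction and side of the threshold, 60 lost a call, 6 gained one and 5 turned, and the cause was not tested. AL359538.1 passed with DESeq2, at an adjusted p of 0.0348. Genes with few SA reads are limited by depth.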
